A study of Mus musculus with 7 samples.

Results

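A set of 6 genes of metal homeostasis were followed in mouse thyroid tissue and in mouse thyroid follicular cell organoids (TFCOs): the metallothioneins Mt1, Mt2 and Mt3, the zinc exporter Slc30a1 (ZnT1), the metal-responsive transcription factor Mtf1 and the zinc importer Slc39a10 (ZIP10). These 6 of 30879 genes in the table were chosen by name with their levels in these tissue and organoid cells already known. The values that selected them are the same levels reported here, so their levels and differences are a description and carry no test. All 6 genes had a row in the table.

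Metallothioneins are small, cysteine-rich proteins of the cytoplasm that bind zinc and copper and buffer the free metal. When free zinc rises, MTF-1 binds short metal response elements in promoters and switches on the metallothionein genes and Slc30a1, whose product carries zinc out of the cell. Glucocorticoids and oxidants are also known inducers of Mt1 and Mt2. Thyroid follicular cells (TFCs) make thyroid hormone on the large precursor thyroglobulin (Tg) and live with hydrogen peroxide as a substrate of that synthesis.

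Single cells were profiled by SORT-seq, a plate-based method: cells that excluded DAPI were deposited 1 per well in 384-well plates, and every captured mRNA molecule carried a unique molecular identifier (UMI). The groups were primary thyroid tissue (2 samples), late passage TFCOs (3 samples) and early passage TFCOs (2 samples), all from wild-type C57BL/6 mice with no added genotype or drug arm. Tissue was digested with collagenase I and TrypLE, whereas TFCOs were freed from the matrix and treated with TrypLE. TFCOs had grown in medium with, among others, B27, N-acetylcysteine, nicotinamide, R-spondin 3, A83-01, forskolin, EGF and FGF10, which the tissue had not seen, so medium, dissociation and group cannot be told apart. Cells of at least 1000 UMIs were used, 2035 of 2590. They numbered 305 and 273 in the tissue samples, 307, 360 and 242 in late samples 1 to 3, and 235 and 313 in early samples 1 and 2. The series is described as having 2 biological replicates of each kind, but 3 late samples were labelled, and nothing ties samples to animals or organoid lines. Some of the spread between samples may therefore be technical.

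Of the 578 tissue cells, 104 fell in a cluster led by Tg. After 24 of them with higher C cell, parathyroid or erythroid scores were set aside, by a rule chosen after the clusters were seen, 80 (39 and 41 per sample) were called TFC-like. They held 1618 and 1221 Tg UMIs per 10000 UMIs, against 68.5 to 154 in the TFCO samples, while Pax8, a transcription factor of the lineage, was at 1.84 and 3.19 in tissue and at 3.51 to 6.17 in TFCOs. TFCO cells were deeper: the median cell held 2687 and 2229 UMIs in the TFC-like cells and 5011 to 12380.5 UMIs in the TFCO samples. In tissue sample 2, 2 of the 41 cells held 268847 and 151110 UMIs, 49.7% and 27.9% of all UMIs of its TFC-like cells, at only 151 and 246 Tg UMIs per 10000. Every level below is therefore a mean over cells, each scaled to 10000 UMIs, in which each cell counts once. Of 9 marker lists of other cell types, 8 had a higher summed level in both tissue samples' TFC-like cells than in every TFCO sample. The exception was the list of 4 parathyroid markers, at 1.26 to 1.30 UMIs per 10000 in tissue and 0.566 to 1.55 in TFCOs. The summed level of 11 endothelial markers was 6.12 to 10.1 UMIs per 10000 in the 2 tissue samples and 1.38 to 2.44 in TFCOs, with 1 marker at 0 in each set. That of 10 immune markers was 1.86 to 2.43 against 0.140 to 0.620, with 2 markers at 0 in TFCOs. That of 4 erythroid markers was 0.719 to 4.19 against 0 to 0.000603, with 3 at 0 in TFCOs. Their part in the differences below was not tested. The plates share their well barcodes, and between 338 and 381 of 384 barcodes recurred in each pair of samples. No 2 cells with the same barcode had the same profile.

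The 3 metallothionein genes lie side by side on the forward strand of chromosome 8 in the GENCODE vM21 annotation of build GRCm38, Mt3 at chr8:94152607-94154146, Mt2 at chr8:94172664-94173568 and Mt1 at chr8:94179082-94180327. Mt2 and Mt1 are separated by 5513 bases. The other genes are at chr1:191906767-191913247 on the forward strand (Slc30a1), chr4:124802104-124849800 on the forward strand (Mtf1) and chr1:46807544-46892852 on the reverse strand (Slc39a10). All 6 are protein-coding. No stretch of 50 bases in the Mt1 or Mt2 transcripts occurs in a transcript of another gene, so reads of these close relatives can be told apart at that length. Mt2 overlaps Gm45774 on the opposite strand, Slc30a1 overlaps 1700034H15Rik and Mtf1 overlaps 1110065P20Rik, and strand-specific counting is not stated. On its own strand Slc39a10 overlaps Gm28151 and Gm37393, and Mtf1 overlaps n-R5s192, which counting by strand would not separate. Of the 50-base stretches of Slc39a10 transcripts, 0.447% also occur in Gm6801. RefSeq windows (GRCm38.p6) were given for all 6 genes. The 250 bases before the RefSeq start are shown for Mt1, Mt2 and Slc30a1, the members known as direct MTF-1 targets. Capitals mark the core of the metal response element, searched as TGCACNC and TGCGCNC on both strands.
Mt1 (chr8:94178839-94179088, forward strand): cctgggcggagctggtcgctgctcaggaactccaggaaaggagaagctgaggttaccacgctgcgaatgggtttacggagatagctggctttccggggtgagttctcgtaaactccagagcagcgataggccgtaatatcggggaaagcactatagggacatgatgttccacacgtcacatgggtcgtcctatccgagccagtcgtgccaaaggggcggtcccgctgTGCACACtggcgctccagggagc
Mt2 (chr8:94172368-94172617, forward strand): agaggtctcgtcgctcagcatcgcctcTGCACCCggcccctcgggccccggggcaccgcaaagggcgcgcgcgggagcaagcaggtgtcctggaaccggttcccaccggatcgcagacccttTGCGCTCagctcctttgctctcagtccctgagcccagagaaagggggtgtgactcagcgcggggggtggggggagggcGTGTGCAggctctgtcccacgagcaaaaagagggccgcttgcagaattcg
Slc30a1 (chr1:191906531-191906780, forward strand): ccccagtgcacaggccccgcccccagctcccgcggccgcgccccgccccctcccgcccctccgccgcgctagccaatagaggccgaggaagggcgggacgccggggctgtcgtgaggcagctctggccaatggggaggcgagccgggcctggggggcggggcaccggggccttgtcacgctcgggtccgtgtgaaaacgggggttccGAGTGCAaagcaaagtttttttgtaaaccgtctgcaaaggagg
The Mt2 window held 3 cores, 223, 128 and 50 bases before the start, with no overlap between them. The Mt1 window held 1 core, 23 bases before the start, and the Slc30a1 window held 1 core, 43 bases before it. At least 1 core stood in 21.4% of the 32851 RefSeq windows of this length and at least 3 cores in 1.26%. The windows of Mt3, Mtf1 and Slc39a10 (which has 2 annotated starts) held no such core, which says only that these letters are not in those 250 bases. Annotated starts differ between sources: 2 of 3 GENCODE transcripts of Mt1 begin 122 and 152 bases downstream of the RefSeq start. The 2 GENCODE transcripts of Mt2 begin 46 and 242 bases downstream of its RefSeq start, and a transcript of Slc30a1 begins 475 bases downstream. The bases just before those starts are not in the windows, so the numbers of cores are not counts for every transcript. A match is a description of the sequence and not evidence of binding.

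Mt1, the main metallothionein of these cells, was at 19.3 and 19.6 UMIs per 10000 in the TFC-like cells of the 2 tissue samples. It was at 126, 71.9 and 104 in late samples 1 to 3 and at 51.5 and 73.2 in early samples 1 and 2. Every TFCO sample lay above both tissue samples, with the lowest TFCO sample 2.63 times the higher tissue sample. The tissue mean was 19.4 ± 0.172 (SD, n = 2). Late TFCOs had a mean of 101 ± 27.2 (SD, n = 3) and early TFCOs one of 62.3 ± 15.3 (SD, n = 2). Over all 5 TFCO samples the mean was 4.39-fold higher than in tissue. Mt2, its neighbour and functional partner, was also higher in TFCOs. It was at 8.61 and 11.99 UMIs per 10000 in tissue, at 51.4, 28.2 and 44.7 in late samples 1 to 3 and at 20.2 and 24.5 in early samples 1 and 2. Here too no TFCO sample overlapped the tissue samples, and the TFCO mean was 3.28-fold higher.

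Together Mt1 and Mt2 took 0.279% and 0.316% of the UMIs of an average TFC-like tissue cell. In TFCOs the share was 0.718% and 0.977% in the early and 1.77%, 1.00% and 1.49% in the late samples. The difference on the log2(mean per 10000 + 1) scale was 1.82, read against a median of 0.22 over the 4330 genes tested in this comparison. It was 1.64 after each sample was centred on its median gene, and 1.63 after Tg was left out of the total of each cell. Of the 6 genes, Mt1, Mt2, Slc30a1 and Slc39a10 were higher in every TFCO sample than in both tissue samples. The same held for 38.9% of all genes tested, and the comparison had been used to choose the members, so nothing is read from that count.

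**Figure D1:**
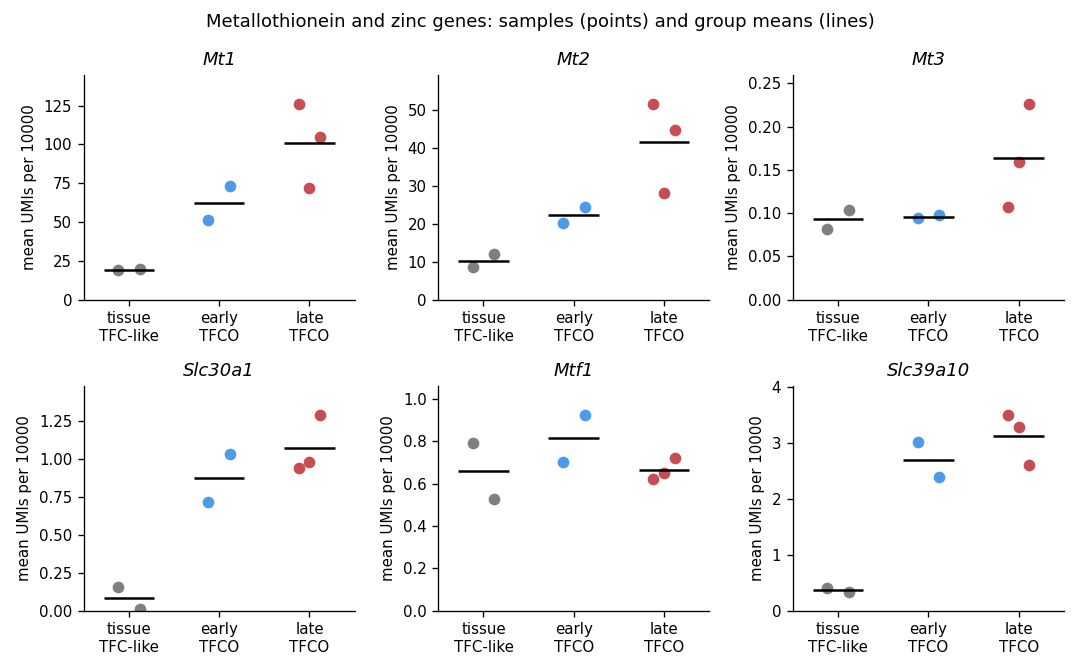
Mean UMIs per 10000 (vertical axis, linear, a scale of its own in each panel) of the 6 genes in TFC-like tissue cells, early TFCOs and late TFCOs; each point is 1 sample and each line is the mean of a group. The TFCO points lie above both tissue points for Mt1, Mt2, Slc30a1 and Slc39a10, and overlap them for Mt3 and Mtf1.

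The difference was seen across cells and not in a few of them. All 1457 TFCO cells held at least 1 UMI of Mt1, whereas 17 of the 80 TFC-like tissue cells held none. The median cell held 22.5 UMIs of Mt1 plus Mt2 per 10000 in tissue and 95.6 in TFCOs. The ranges overlapped: 4 of 80 tissue cells lay above the TFCO median and 62 of 1457 TFCO cells lay below the tissue median. Within samples the spread was wide. In late sample 1 the central 90% of cells ran from 36.4 to 397 UMIs per 10000 around a median of 159, and in early sample 1 they ran from 19.0 to 169.8 around 61.1. With each cell thinned to 1000 UMIs, Mt1 was found in 59.0% and 73.2% of the TFC-like tissue cells and in 95.3% to 99.2% of TFCO cells, against 74.4%, 82.9% and 100% before thinning.

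**Figure D2:**
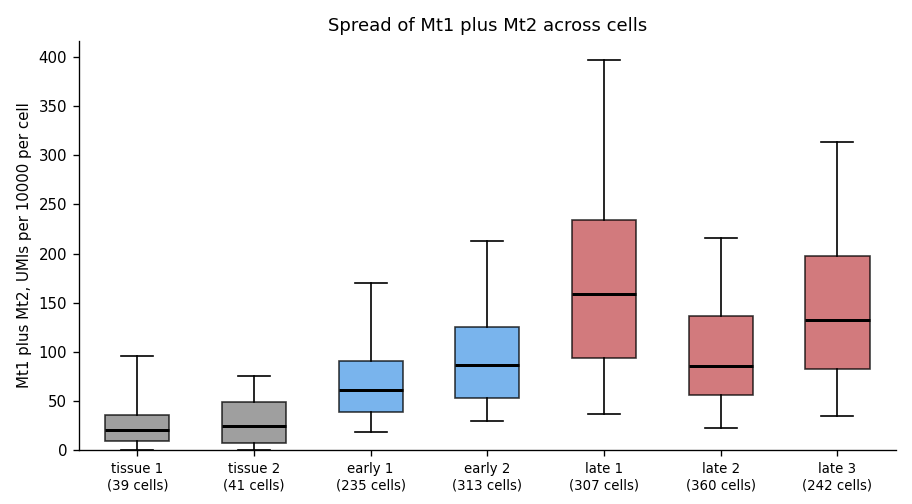
Mt1 plus Mt2 in UMIs per 10000 UMIs of a cell (vertical axis) for each sample; boxes span the 25th to 75th percentile of cells, whiskers the 5th to 95th, and the black line is the median. The medians are 20.7 and 24.5 in the tissue samples and 61.1 to 159 in the TFCO samples.

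Mt1 gave the larger part of the pair in every sample. Its share of the Mt1 and Mt2 UMIs was 65.7% (95% exact binomial interval 60.2 to 70.9) and 60.2% (57.8 to 62.6) in the tissue samples. In TFCOs the share lay between 69.1% and 71.8%, a range of under 3 percentage points over 5 samples whose summed level differed by more than 2-fold. Intervals here cover counting error only. Without its 2 deepest cells, tissue sample 2 was at 60.5% (55.8 to 65.1). Mt1 and Mt2 also moved together from cell to cell. Pearson's r between them on the natural-log scale was 0.62 to 0.83 within the 5 TFCO samples and 0.45 and 0.65 within the tissue samples, where cells of a sample share a library and differ in depth.

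Mt3, the form known from neurons, was close to the limit of detection. It had 1 UMI in each tissue sample and 35 and 39 UMIs in the early TFCO samples, and 26, 81 and 44 UMIs in the late ones. Per 10000 UMIs it was at 0.0819 and 0.104 in tissue and at 0.0938 to 0.226 in TFCOs, with overlap. After thinning, 2.56% and 2.44% of tissue cells and 0.426% to 2.07% of TFCO cells held a UMI, each tissue share being 1 cell. It failed the minimum mean of 0.5 per 10000 and entered no fit.

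Slc30a1, which exports zinc across the plasma membrane, was at 0.156 and 0.0103 UMIs per 10000 in the tissue samples, from 2 UMIs (95% exact Poisson interval 0.242 to 7.22) and 9 UMIs (4.12 to 17.1). In TFCOs it was at 0.943, 0.980 and 1.29 in late samples 1 to 3 and at 0.715 and 1.04 in early samples 1 and 2. No TFCO sample overlapped the tissue samples. The ratio of means was 11.9, but it rests on 11 tissue UMIs. All 9 UMIs of tissue sample 2 came from its 2 deepest cells, and the other 39 cells held none. With UMIs summed over cells instead of averaged per cell the ratio was 5.71. A UMI of Slc30a1 was found in 1 of 39 and 2 of 41 TFC-like tissue cells, and in 34.2% to 55.8% of TFCO cells. After thinning it was found in 2.56% and 0% of tissue cells and in 5.11% to 9.12% of TFCO cells, where 0 of 41 cells allows a share of up to 7.32%.

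Slc39a10, a plasma membrane importer of the ZIP family, was at 0.403 and 0.332 UMIs per 10000 in tissue, from 4 and 33 UMIs. It was at 3.50, 3.28 and 2.61 in late samples 1 to 3 and at 3.01 and 2.38 in early samples 1 and 2, with no overlap with tissue. The TFCO mean was 8.05-fold higher, or 6.29-fold with UMIs summed over cells. The lowest TFCO sample was 5.92 times the higher tissue sample. After thinning, 2.56% and 2.44% of TFC-like tissue cells and 18.8% to 27.5% of TFCO cells held a UMI. The importer and the exporter were thus both higher in TFCOs. They passed the minimum mean of 0.5 only through their TFCO levels.

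Mtf1, the zinc sensor that acts on the metallothionein promoters, was at 0.793 and 0.525 UMIs per 10000 in tissue, from 8 and 20 UMIs. In TFCOs it lay between 0.620 and 0.924, and the groups overlapped. The ratio of means was 1.097, and the log2 difference of 0.07 changed sign to -0.11 once samples were centred on their median gene. Mtf1, Mt1 and Mt2 followed the well barcode, which every plate reuses. Over pairs of TFCO cells that carried 1 barcode on separate plates, r was 0.170 for Mtf1, 0.0587 for Mt1 and 0.0768 for Mt2, above the limit of 0.05 that 4174 of 19498 genes passed. It was under that limit for Mt3, Slc30a1 and Slc39a10. The part of the barcode in the differences was not tested.

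Within the gland, Mt1 and Mt2 were higher in TFC-like cells than in the endothelial-like, mural-like, stromal-like and immune-like cells of both samples. In endothelial-like cells (89 and 91 cells per sample) Mt1 was at 0.727 and 0.754 UMIs per 10000, against the 19.3 and 19.6 of TFC-like cells. It was at 1.78 and 0.836 in mural-like, 2.74 and 2.38 in stromal-like and 1.41 and 2.42 in immune-like cells. Mt2 was at 0.196 to 1.55 in these classes apart from the 7 stromal-like cells of tissue sample 2, which held none. Free RNA can leave UMIs in cells that do not express a gene, and Tg, which should be TFC-restricted, was at 15.5 to 29.5 in the 4 other classes. The ratio of Mt1 to Tg was 2.62 to 17.7 Mt1 UMIs per 100 Tg UMIs there, against 1.19 and 1.60 in TFC-like cells. In TFCOs, where Tg is far lower, the ratio was 55.6 to 94.8.

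The zinc transporters had other orders in the gland. Among the 5 named classes, Slc30a1 was highest in endothelial-like cells, at 0.669 and 0.603 UMIs per 10000, a UMI being found in 34 of 180 cells. It was at 0.218 and 0.206 in mural-like and 0.0687 and 0.0221 in immune-like cells. The endothelial-like level was close to that of early TFCO sample 1 (0.715). Slc39a10 was at 0.402 and 0.415 in endothelial-like cells, which overlapped the 0.403 and 0.332 of TFC-like cells. It was at 0.274 and 0.397 in immune-like cells, and 1 UMI was found in the 54 mural-like cells. None of the 5 named classes came near the TFCO range of 2.38 to 3.50. Cells set aside from the TFC-like cluster for their C cell, parathyroid or erythroid genes (24 cells, with 1093 and 652 Tg UMIs per 10000) held Mt1 at 19.9 and 24.4, above the TFC-like cells of the same sample, and Mt2 at 6.26 and 4.36, below them. Another 154 tissue cells stayed unnamed and held Mt1 at 0.633 and 2.36.

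**Figure D3:**
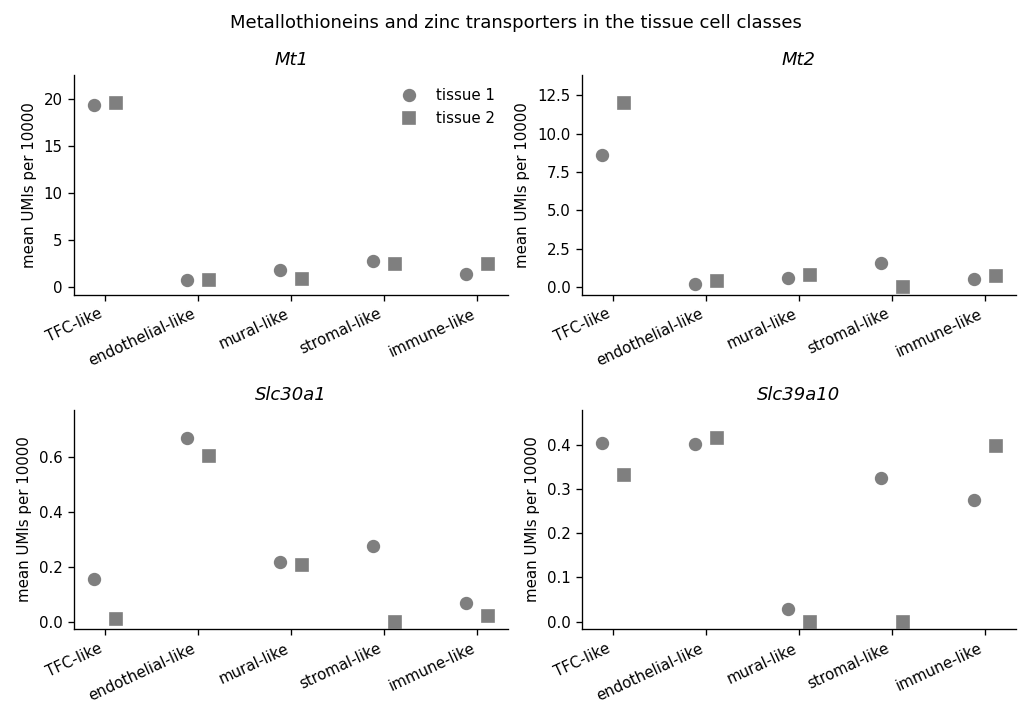
Mean UMIs per 10000 (vertical axis, linear, a scale of its own in each panel) of Mt1, Mt2, Slc30a1 and Slc39a10 in the 5 named tissue classes; circles are tissue sample 1 and squares are tissue sample 2. Mt1 and Mt2 stand highest in TFC-like cells, and Slc30a1 in endothelial-like cells.

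With passage, the metallothioneins tended upward but within wide spread. Mt1 was at 71.9 to 126 in late and at 51.5 and 73.2 in early samples, so that late sample 2 lay below early sample 2. Mt2 was at 28.2 to 51.4 in late and at 20.2 and 24.5 in early samples. These means over cells did not overlap, and the ratio of means was 1.85. With UMIs summed over cells Mt2 overlapped, at 27.5 in late sample 2 and 27.8 in early sample 2. The summed pair was 1.68-fold higher in late TFCOs, a log2 difference of 0.72 with a pooled SD between samples of 0.39. It too overlapped with UMIs summed over cells, at 95.6 in late sample 2 and 98.7 in early sample 2. By mean over cells, all late samples lay above both early samples for Mt2 and for 18.0% of all genes tested. Mt3, which is not among the genes tested, was at 0.108 to 0.226 in late and at 0.0938 and 0.0977 in early samples. With UMIs summed over cells Mt3 overlapped, at 0.133 in late sample 1 and 0.164 in early sample 2. No test was run for the members. Slc30a1 (1.22-fold), Slc39a10 (1.16-fold) and Mtf1 (0.815-fold) overlapped between the passages. The late and early comparison and the tissue comparison share the same TFCO samples.

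Cycling cells, defined by at least 1 UMI of Mki67 or Top2a, made up 50, 146 and 61 cells of late samples 1 to 3 and 106 and 63 cells of early samples 1 and 2. Mt1 was lower in cycling than in other cells of every sample: 91.4 against 133 UMIs per 10000 in late sample 1, 68.0 against 74.6 in late sample 2, 99.0 against 106 in late sample 3, 49.1 against 53.5 in early sample 1 and 67.0 against 74.7 in early sample 2. In 4 of the 5 samples the gap was small. These are means over cells. The median cell of early sample 2 went the other way, at 64.2 in cycling and 63.5 in other cells. In the other samples the median too was lower in cycling cells. The mean log2 difference was -0.21 ± 0.18 (SD, n = 5). For Mt1 plus Mt2 it was -0.19 ± 0.18, and -0.11 without late sample 1. Cycling cells lay below the others in 5 of 5 samples for 4.93% of the 4681 genes tested and above them for 8.22%. Tg was also lower in 5 of 5 samples, by a larger mean log2 difference of -0.38 ± 0.10. Mt2 was lower in 4 of 5 samples and slightly higher in late sample 3 (45.9 against 44.3). Slc39a10 was lower in 4 of 5 (-0.13 ± 0.14), Mtf1 in 4 of 5 (-0.05 ± 0.07) and Slc30a1 in 3 of 5 (0.01 ± 0.18). Cycling cells were deeper in every sample, with a median of 6820 against 5472 UMIs in late sample 1 and 17645.5 against 7650 in early sample 1, and the part of depth in these differences was not tested.

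**Figure D4:**
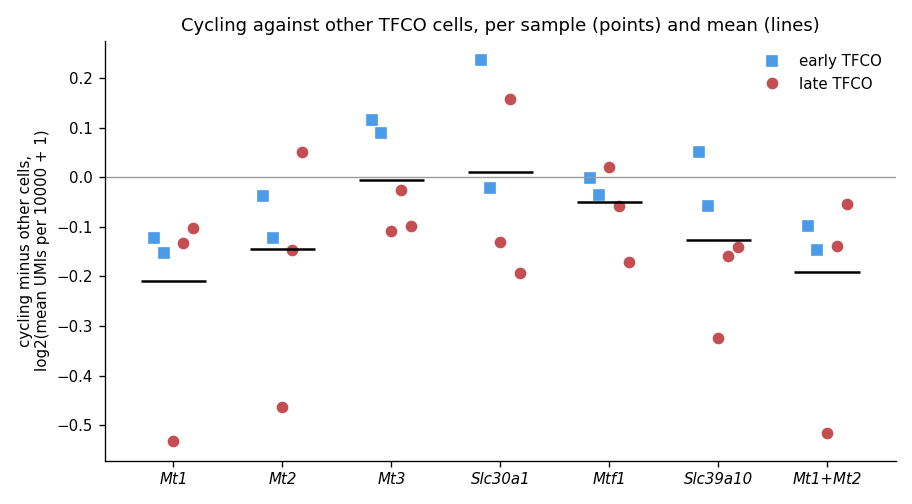
Difference between cycling and other TFCO cells on the log2(mean UMIs per 10000 + 1) scale (vertical axis) for the 6 genes and for Mt1 plus Mt2; circles are late and squares early samples, and black lines are the mean of 5 samples. Mt1 lies below 0 in all 5 samples, with late sample 1 lowest at -0.53.

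Among the genes whose level followed Mt1 plus Mt2 most closely from cell to cell in TFCOs were Tg (mean r over the 5 samples 0.33), Atp1b1 (0.31), Ctsl (0.28), Napsa (0.25) and Ubb (0.23), all positive in 5 of 5 samples. Atp1b1 is a subunit of the sodium pump, Ctsl and Napsa are proteases and Ubb encodes ubiquitin. The median over the 4886 genes compared was -0.01. For Tg the r ranged from 0.16 in late sample 2 to 0.50 in late sample 1. In the TFC-like cells of tissue samples 1 and 2 the r of Tg was 0.13 and -0.20, of opposite sign. The closest genes over the 80 cells were Chchd10 (0.54), Rps14 (0.51), Mir703 (0.47), Atp5b (0.46), Fth1 (0.46) and Rpl10-ps3 (0.45), against a median of 0.08 over 1154 genes. None of the 5 genes named for TFCOs was among the 6 of tissue, and of those 5 only Ubb was above 0.4 in tissue. The members correlated weakly with the pair: Slc30a1 at 0.05 to 0.18 and Slc39a10 at 0.08 to 0.17 in the TFCO samples, in sparse counts. These are correlations across cells of 1 library each, which differ in depth.

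Other genes of metal handling and stress were followed in 6 lists of 88 genes that leave out the members. List genes were tested with limma (Benjamini-Hochberg adjustment over all genes tested, threshold 0.05). The lists, like the members, were chosen with earlier results of these data known, so their counts are not independent evidence of a direction. Between TFCOs and TFC-like tissue cells, 30 list genes were tested, 9 were higher in TFCOs and 2 were lower. Over all 4330 genes, 17.2% were higher and 5.50% lower, so 75.8% of all calls were higher. Of the 11 list genes past the threshold, Slc39a9, Aco1, Txnrd1, Errfi1 and Egr1 had a tissue mean under 0.5 UMIs per 10000. They were tested only through their TFCO levels, and Ftl1 only through its tissue level. For these genes the filter favours the direction called, so their adjusted p values below are no independent support for it. The share of higher calls was 45.8% with samples centred on the median gene, 59.9% with Tg left out of the totals and 50% with UMIs summed over cells.

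Slc39a5, Slc39a7 and Cox17 of these lists were not analysed here. In this comparison none of 9 other zinc exporters reached the minimum level. Their summed level was 1.96 and 1.13 UMIs per 10000 in tissue and 1.99 to 2.48 in TFCOs, narrowly without overlap. Singly, Slc30a2, Slc30a4, Slc30a7 and Slc30a9 were higher in every TFCO sample, on 1, 14, 18 and 24 tissue UMIs. The remaining exporters overlapped. Of 13 other ZIP importers, 3 were tested and 2 were higher. Slc39a14, an importer of zinc and iron, was at 0.591 and 1.14 UMIs per 10000 in tissue, at 2.53, 2.88 and 2.93 in late samples 1 to 3 and at 3.41 and 1.93 in early samples 1 and 2. Its log2 difference was 1.00 ± 0.28 (SE, adjusted p = 0.0257). Slc39a9, which met the minimum mean only through its TFCO level, was higher by 0.58 ± 0.17 (adjusted p = 0.0280). Slc39a14 passed in 16 and Slc39a9 in 14 of 20 alternatives. The summed level of the 11 importers with a row was 2.05 and 3.15 in tissue and 4.75 to 6.93 in TFCOs, without overlap. Slc39a14 was its largest term in every TFCO sample. Singly, Slc39a2, Slc39a8, Slc39a9, Slc39a11, Slc39a12 and Slc39a14 were higher in every TFCO sample than in both tissue samples. Of these, Slc39a2, Slc39a8 and Slc39a12 were too low to be tested and rest on 1, 2 and 6 tissue UMIs. Slc39a2 also followed the well barcode, with an r of 0.677. Slc39a1, Slc39a3, Slc39a4, Slc39a6 and Slc39a13 overlapped. Being higher in every TFCO sample held for 38.9% of all genes tested. That set leaves out Slc39a2, Slc39a8, Slc39a12 and the exporters, so it is no background for them.

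In copper and iron handling, 8 of 20 genes were tested, 2 were higher and 1 was lower. Aco1, the iron-sensing protein IRP1, was at 0.164 and 0.134 UMIs per 10000 in tissue and at 1.28 to 1.58 in TFCOs, a log2 difference of 1.08 ± 0.17 (adjusted p = 0.00229). Cp, the copper-carrying ferroxidase ceruloplasmin, was higher by 1.34 ± 0.36 (adjusted p = 0.0233). Ftl1, the ferritin light chain, was lower by -1.54 ± 0.15 (adjusted p = 0.000182), at 1.95 and 2.27 in tissue against 0.00792 to 0.257 in TFCOs. Near-identical copies make this value uncertain, since 50.9% of the 50-base stretches of its transcripts occur in 15 other annotated genes. Aco1 met the minimum mean only through its TFCO level and Ftl1 only through its tissue level, so the filter favours the direction called. The ferritin heavy chain gene Fth1 was at 16.3 and 13.6 in tissue and 8.53 to 16.2 in TFCOs (adjusted p = 0.447).

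In the metal and oxidant response list, 8 of 15 genes were tested and 3 were higher: Prdx1, a peroxidase (1.14 ± 0.27, adjusted p = 0.0151), Gclm, the modifier subunit of the enzyme that starts glutathione synthesis (0.92 ± 0.31, adjusted p = 0.0486) and Txnrd1, thioredoxin reductase (0.49 ± 0.15, adjusted p = 0.0369). Without early sample 1, Gclm was at 0.81 (limma adjusted p = 0.0746) and Txnrd1 at 0.51 (0.0509), and without early sample 2 Txnrd1 was at 0.47 (0.0518). Hmox1, a well-known target of heavy metals and oxidants, stayed near 0 in both, at 0 and 0.179 UMIs per 10000 in tissue and 0.0141 to 0.0824 in TFCOs. In the glucocorticoid list, 5 of 12 genes were tested and 1 was higher, Errfi1, a feedback inhibitor of the EGF receptor (1.02 ± 0.28, adjusted p = 0.0257). Without early sample 1 it was at 0.96 (adjusted p = 0.0758). Fkbp5 and Tsc22d3, widely used readouts of the glucocorticoid receptor, were too low to be tested. Fkbp5 was at 0 and 0.355 UMIs per 10000 in tissue and at 0.288 to 0.636 in TFCOs. Tsc22d3 was at 0.230 and 0.0816 in tissue and at 0.0701 to 0.113 in TFCOs. Per1 and Lcn2, also too low to be tested here, were higher in every TFCO sample. Per1 was at 0 and 0.00666 in tissue and at 0.0694 to 0.158 in TFCOs. Lcn2 was at 0 in both tissue samples and at 0.0270 to 1.52 in TFCOs. Pdk4, Cdkn1a and Sult1a1, the remaining untested genes of this list, overlapped between the groups. In the dissociation and heat shock list, 6 of 19 were tested. Egr1, like Txnrd1 and Errfi1 above, met the minimum mean only through its TFCO level, so the filter favours the direction called. Egr1, an immediate early gene, was higher (1.44 ± 0.27, adjusted p = 0.00610) and the chaperone Hspa8 lower (-0.89 ± 0.27, adjusted p = 0.0354), the latter sharing 38.6% of its 50-base stretches with 14 other genes. Without early sample 2, Hspa8 was at -0.80 (adjusted p = 0.0602). The median log2 difference was 0.58 for the importers, 0.17 for copper and iron, 0.25 for metal and oxidant, 0.06 for glucocorticoid and -0.02 for dissociation genes, beside 0.22 over all genes tested.

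**Figure D5:**
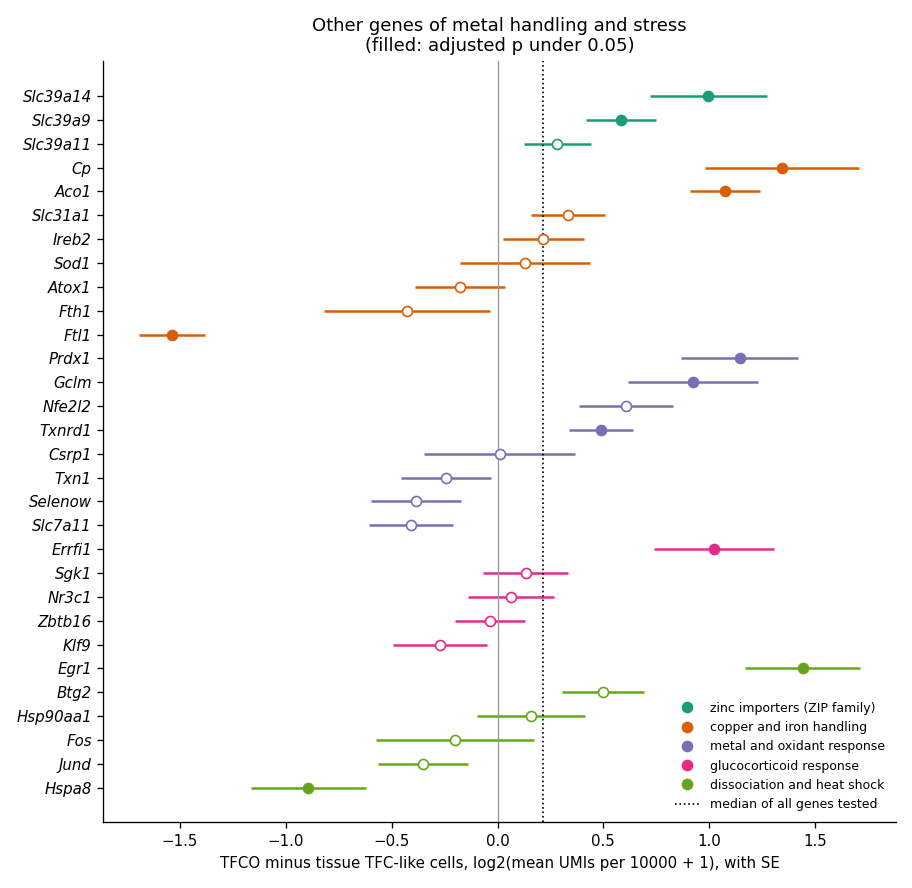
Difference between TFCOs and TFC-like tissue cells on the log2(mean UMIs per 10000 + 1) scale (horizontal axis, with SE) for the 30 tested list genes (vertical axis), coloured by list; filled points passed an adjusted p of 0.05 and the dotted line is the median of all genes tested. The filled points are 9 genes above 0 and 2 below it, Ftl1 and Hspa8.

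Between late and early TFCOs none of the 30 tested list genes passed in limma, and 8 had an unadjusted p under 0.05. Over all genes 0.0231% passed, which is 1 gene, the ribosomal pseudogene Rpsa-ps10 (named after its value was seen). Of all 4330 genes, 888 had an unadjusted p under 0.05. The median log2 difference of the lists lay between -0.10 and 0.32, beside 0.01 over all genes.

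In cycling against other TFCO cells, 4 of 35 tested list genes passed and all were higher in cycling cells, where 1.20% of all genes were higher and 0.278% lower. These were Hsp90aa1, a chaperone (0.33 ± 0.07, adjusted p = 0.0150), Gclm (0.33 ± 0.06, adjusted p = 0.0155), the redox protein Txn1 (0.34 ± 0.07, adjusted p = 0.0194) and Egr1 (0.40 ± 0.09, adjusted p = 0.0312). Hsp90aa1 shares 47.5% of its 50-base stretches with 4 other annotated genes. No exporter, importer, copper, iron or glucocorticoid gene passed. The count was 0 after thinning to 1000 UMIs, 2 without late sample 3, and 1 without late sample 1 (Txn1), late sample 2 (Gclm) or early sample 1 (Hsp90aa1).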

How the data were processed

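The authors deposited 1 table on a natural log scale, ln(1 + x), where x is a gene's UMIs per 10000 UMIs of its cell. Per the labels, Trim Galore 0.4.3, STAR 2.5.3a and Seurat were used with GRCm38 (mm10), and other steps are not given in the sources used here. With the log undone, 100% of non-zero values were whole UMIs (tolerance 0.01). Total depth was 1406925 to 4703472 UMIs per sample.

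Cells of at least 1000 UMIs were kept. Tissue cells were clustered with scanpy 1.11.5 and clusters were named from marker lists. A minimum marker score of 0.5 and the removal of 24 TFC-like cells with higher C cell, parathyroid or erythroid scores were chosen after seeing the clusters. Levels were averaged over the cells of a sample. No count model was used on these normalised values. For differences, log2(mean per 10000 + 1) was fitted by limma (3.58.1, R 4.3.3) for genes with a mean of at least 0.5. The fit had a trended prior and separate weights for tissue and TFCOs. It was first run on simulated data, drawn from the total UMIs of each sample with the same spread in tissue and TFCOs. That simulation does not cover the spread between shallow tissue cells, so nothing is read from it. P values were adjusted by Benjamini-Hochberg over all genes tested. TFCO against tissue is the mean of late and early minus tissue. Cycling cells were fitted with the sample as a term. The 6 genes are named throughout, list genes where they passed the threshold (others named were chosen after their values were seen), and the 6 most correlated genes after leaving out genes that follow the well barcode (1 of them is not reported here). The members and lists were chosen with earlier results of these data known. Alternatives concerned cell and gene filters, thinning, pseudocount, weights, centring and each sample left out.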

Additional observations from a re-analysis of the deposited data

Results flagged for a closer look

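Mt3 differed in direction between the passages in the cycling comparison. On the log2(mean UMIs per 10000 + 1) scale, cycling minus other cells was -0.109, -0.0260 and -0.0984 in late samples 1 to 3 and 0.115 and 0.0898 in early samples 1 and 2. Every late sample moved down and every early sample moved up, and the difference between the passages was not tested. The values rest on 2 to 34 UMIs of Mt3 among the cycling cells of a sample.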

How the results depend on the processing

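Mt1 plus Mt2 stayed higher in TFCOs than in tissue in all 20 alternatives (log2 difference 1.55 to 2.01), higher in late than in early TFCOs in 15 (0.50 to 0.95) and lower in cycling cells in 11. The last was -0.47 when at least 2 cycling UMIs were required and -0.22 to -0.11 with a sample left out. These are plain differences of means, which a change of weights or the use of every gene with a UMI cannot alter. Those alternatives were bound to return the main value and say nothing about its stability. The 11 list genes past the threshold against tissue became 2 with summed UMIs, 6 with cells of at least 2000 UMIs, 6 after thinning to 1000 UMIs, 5 with Tg left out of the totals (chosen after seeing the data), 5 with median centring and 4 with every gene that had a UMI. They were 11 with any late sample left out. Fits without a tissue sample were also run with equal weights, so weights and samples changed together there. Their counts are not given, but they are among the 20 alternatives of the pass counts that follow. Aco1 and Ftl1 passed in 20 of 20 alternatives, Egr1 in 19, Prdx1 in 17, Slc39a14 and Cp in 16, Slc39a9 and Hspa8 in 14, Errfi1 in 13, Gclm in 10 and Txnrd1 in 9. In the main fit Aco1, Egr1, Slc39a9, Errfi1 and Txnrd1 met the minimum mean only through their TFCO levels. Ftl1 met it only through its tissue level. For these genes the filter favours the direction called, so their pass counts are no independent support for it. The 4 list genes in the cycling comparison became 0 after thinning and 0 with every gene that had a UMI, and 1 to 4 with a sample left out. The cause was not tested. Over all genes, 982 calls against tissue became 136 with summed UMIs, 545 with cells of at least 2000 UMIs and 451 after thinning. They became 625 with median centring, 632 with every gene that had a UMI and 1757 with equal weights. Without early sample 1, 351 genes passed between late and early TFCOs in place of 1. The 69 cycling calls became 152 with at least 2 cycling UMIs, 146 with summed UMIs, 9 after thinning, 7 with every gene that had a UMI, 36 without late sample 2 and 39 without early sample 1. Of the values for single members, 250 of 276 moved by less than the spread between samples. That count includes the alternatives of weights and of every gene with a UMI, in which no member value could move. Slc30a1 against tissue was 0.86, 2.65 with a pseudocount of 0.1 and 0.68 with median centring, and Slc39a10 was 1.51, 2.68 and 1.33. The sign of the Mtf1 and Mt3 differences against tissue depended on the setting. Depth limits Slc30a1, Slc39a10 and Mt3 in tissue, which rest on 11, 37 and 2 UMIs.

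No paired analysis was possible because TFCO samples are numbered 1 to 5 across both passages and tissue samples separately, no label ties a tissue sample to an organoid line, and the cycling comparison already has the sample as a term.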
